A study of Homo sapiens with 8 samples.

Results

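REST is a zinc finger protein that silences neuronal genes in cells that are not neurons. The 10 genes described here were taken by name: REST, its corepressors RCOR1, RCOR2 and RCOR3 of the CoREST family, the scaffolds SIN3A and SIN3B, and the histone-modifying enzymes KDM1A, HDAC1, HDAC2 and EHMT2. All 10 were found among 34290 genes with a count, and all 10 passed the filter on low counts that left 19280 genes for testing. They were measured by RNA sequencing in 4 libraries of normal HEK293T cells and 4 libraries of HEK293T cells overexpressing human KCNQ3 from a tagged reading frame, a subunit of the neuronal M-current potassium channel. HEK293T is an established cell line from human embryonic kidney, made to express the large T antigen of SV40.

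The overexpressing cells were transfected with FuGene HD and harvested 48 h later. The labels attach one transfection text to the samples of both groups, so the sources used here do not tell whether control cells received reagent or an empty plasmid. The submitters call the 4 libraries of each group biological replicates, but no label ties them to separate cultures. The p-values below thus cover the spread between these samples alone, and that spread may be technical. In such bulk RNA, fewer cells of a kind and less RNA per cell cannot be told apart.

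REST binds a DNA element called RE1, found near many genes of the synapse and of neurotransmission, and holds these genes silent outside the nervous system. It recruits CoREST proteins, which carry the demethylase KDM1A and the deacetylases HDAC1 and HDAC2, and SIN3 proteins, which also carry deacetylases. EHMT2, also called G9a, adds methyl groups to histone H3 and joins the same repressor. During neuronal differentiation REST is lost and its targets are released. Neurons also splice REST and KDM1A in forms that other cells rarely make, and they include an exon of EHMT2 more often than other cells.

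The libraries held 24020097 to 30734915 counts each. KCNQ3 itself had counts of 4, 5, 0 and 2 in control libraries 1 to 4 and 15283, 15874, 19709 and 18603 in overexpression libraries 1 to 4. All 4 overexpression libraries lay above all 4 controls, with an exact two-sided permutation p of 0.0286, the smallest that 4 against 4 libraries allow. All 6 marker genes listed for the HEK293 line had counts, with a summed level of 952 to 1117 CPM (a gene's estimated counts for every 1000000 in the library, TMM-scaled) in controls and 903 to 1022 CPM in overexpression libraries. Most of that sum was VIM, with means of 759 CPM in controls and 684 CPM in overexpression libraries. Of 7 neuron markers, SLC17A6 had no count in any library, and SLC32A1, GAD2 and ELAVL3 had 7, 18 and 13 counts over all libraries. RBFOX3 and SLC17A7 were low but passed the filter, with 305 and 483 counts over all libraries. Their means were 1.46 and 2.40 CPM in controls and 1.49 and 2.25 CPM in overexpression libraries. The summed level of the 7 markers was 16.9 to 19.8 CPM in controls and 17.1 to 18.6 CPM in overexpression libraries. Most of it was SYT1, with means of 14.9 CPM in controls and 13.7 CPM in overexpression libraries.

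None of the 10 genes changed by the test across all genes. By the quasi-likelihood test of edgeR, with p-values adjusted after Benjamini-Hochberg over the 19280 genes, 0 of 10 had an adjusted p below 0.05, where 58 genes or 0.301% of all those tested did. At an unadjusted p below 0.05 there were 2 of 10, against 19.4% of all genes, and DESeq2 called 0 of 10 against 9.9% of all genes it gave an adjusted p. No gene of the 10 had groups that did not overlap, which held for 11.6% of all genes tested. Their log2 differences ran from -0.18 to 0.12, with 7 of 10 below 0 and a median of -0.04, beside a median of 0.01 and 47.4% below 0 over all genes tested. The summed level of the 10 genes was 1142 to 1193 CPM in controls and 1159 to 1189 CPM in overexpression libraries.

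**Figure D1:**
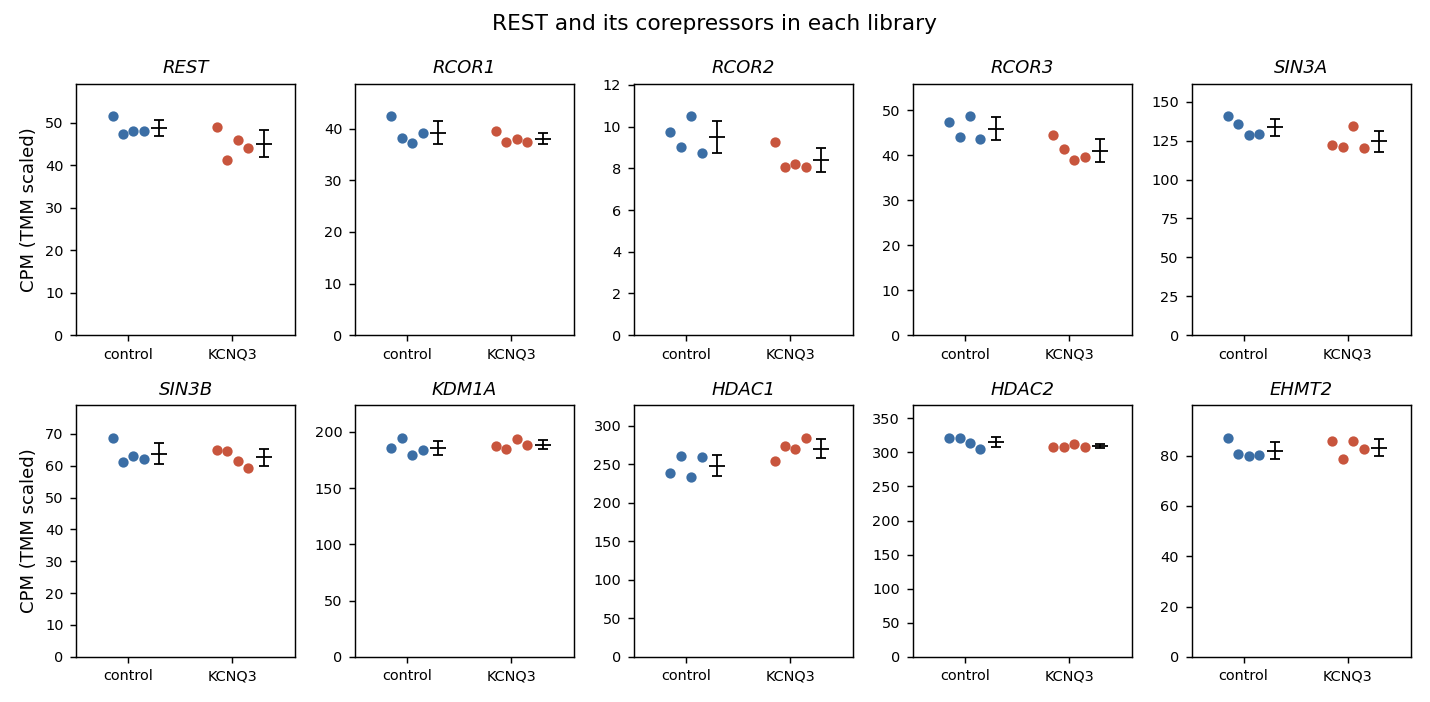
Level of each of the 10 genes in CPM with TMM scaling, 1 point per library, for 4 control libraries (blue) and 4 KCNQ3 overexpression libraries (red), with bars at the mean ± SD and each axis starting at 0. The groups overlap in every panel, and REST runs from 41.3 to 51.5 CPM.

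REST, the DNA-binding member (ENSG00000084093, chromosome 4, 56907876 to 56966678, GRCh38), was at 51.5, 47.3, 48.0 and 48.0 CPM in control libraries 1 to 4 and at 49.0, 41.3, 46.0 and 44.2 CPM in overexpression libraries 1 to 4. Overexpression library 1 lay above 3 of the 4 controls, and the other overexpression libraries lay below every control. The group means were 48.7 ± 1.89 and 45.1 ± 3.22 CPM (SD, n = 4), a log2 difference of -0.11 (SE 0.055, 95% interval -0.23 to 0.01) with an edgeR quasi-likelihood adjusted p of 0.302. REST shares 23 exon bases with NOA1, a gene on the opposite strand with 1471 to 2076 counts per library, and the sources used here do not say whether counting used strand.

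The CoREST scaffolds join REST to KDM1A and the deacetylases. RCOR3 was at 47.4, 44.1, 48.7 and 43.6 CPM in control libraries 1 to 4 and at 44.5, 41.3, 38.9 and 39.6 CPM in overexpression libraries 1 to 4, so that only overexpression library 1 reached into the control range. Its log2 difference of -0.16 (SE 0.055, interval -0.28 to -0.04) had the smallest p of the 10 genes, 0.0141 before and 0.155 after adjustment by the edgeR test. DESeq2 gave RCOR3 an adjusted p of 0.0514, just above the threshold and the lowest of 16 alternatives. RCOR2 was at 9.73, 9.05, 10.5 and 8.75 CPM in controls and at 9.27, 8.07, 8.21 and 8.09 CPM in overexpression libraries. Again only overexpression library 1 lay within the control range, and the log2 difference was -0.18 (SE 0.081, interval -0.35 to 0.00, edgeR adjusted p = 0.262). RCOR1, at 37.2 to 42.4 CPM in controls and 37.4 to 39.6 CPM in overexpression libraries, had a log2 difference of -0.04 (interval -0.15 to 0.06, edgeR adjusted p = 0.681), and its control range held every overexpression library.

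The SIN3 proteins are large scaffolds without enzyme activity that bind the other end of REST. SIN3A was at 141, 136, 129 and 129 CPM in control libraries 1 to 4 and at 122, 121, 135 and 121 CPM in overexpression libraries 1 to 4. Overexpression library 3 was the one that reached the control range, and the log2 difference was -0.10 (SE 0.049, interval -0.21 to 0.01, edgeR adjusted p = 0.288). SIN3B, at 61.1 to 68.6 CPM in controls and 59.3 to 64.8 CPM in overexpression libraries, had a log2 difference of -0.03 (interval -0.13 to 0.08, edgeR adjusted p = 0.820), which became 0.01 without control library 1.

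Among the enzymes, HDAC1, a histone deacetylase shared by the CoREST and SIN3 branches, was at 239, 260, 233 and 259 CPM in control libraries 1 to 4 and at 254, 274, 269 and 284 CPM in overexpression libraries 1 to 4. Only overexpression library 1 fell within the control range, and HDAC1 was the member with the largest positive log2 difference, 0.12 (SE 0.052, interval 0.01 to 0.24), with an unadjusted p of 0.0358 and an edgeR adjusted p of 0.223. HDAC2, its close paralog, was steadier: 306 to 321 CPM in controls and 307 to 313 CPM in overexpression libraries, a log2 difference of -0.03 (interval -0.11 to 0.05, edgeR adjusted p = 0.736). KDM1A, which removes methyl groups from histone H3, was at 180 to 194 CPM in controls and 185 to 194 CPM in overexpression libraries. Its log2 difference of 0.02 (interval -0.06 to 0.11, edgeR adjusted p = 0.811) was -0.027 on the scale of log2(TPM + 1), where TPM is the authors' level per length of transcript. EHMT2, the histone methyltransferase, was at 79.7 to 86.9 CPM in controls and 78.8 to 85.7 CPM in overexpression libraries, with a log2 difference of 0.02 (interval -0.08 to 0.12, edgeR adjusted p = 0.837). The intervals of KDM1A, HDAC2 and EHMT2 all lay within 0.12 of 0 on the log2 scale.

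**Figure D2:**
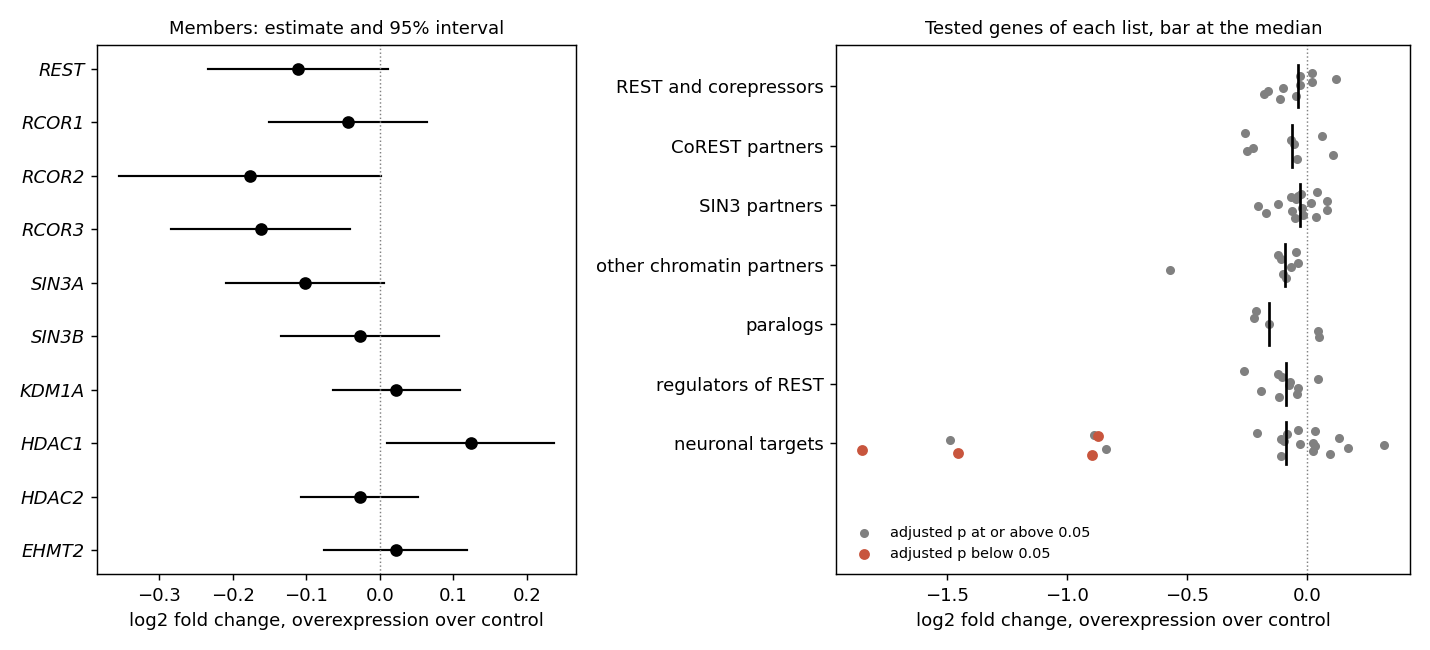
Log2 fold change of KCNQ3 overexpression over control from edgeR's quasi-likelihood test on 4 against 4 libraries, for each of the 10 genes with its 95% interval (left) and for each tested gene of 7 lists with a bar at the list's median (right). The red points, with an adjusted p below 0.05, are the 4 neuronal targets CELF3, SNAP25, SYN1 and RUNDC3A, all below 0.

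Per length of transcript, the RNA of HDAC1, HDAC2 and KDM1A was far more abundant than that of REST. Protein was not measured. On the TPM scale, HDAC1 had a mean level of 202 (186 to 214 over the 8 libraries), HDAC2 of 123 (93.2 to 168) and KDM1A of 99.3 (93.5 to 106). EHMT2 followed at 35.5, SIN3A at 33.6, RCOR3 at 29.7, SIN3B at 24.0, RCOR1 at 11.2, REST at 10.6 and RCOR2 at 5.02 TPM. In that order the ranges over libraries separated HDAC1 from HDAC2, KDM1A from EHMT2, SIN3B from RCOR1 and REST from RCOR2. The ranges of the other neighbours overlapped. All genes were measured in the same libraries, so such an overlap does not show equal levels. RCOR3 lay above SIN3B in every library, whereas the order of RCOR1 and REST was not the same in all.

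**Figure D3:**
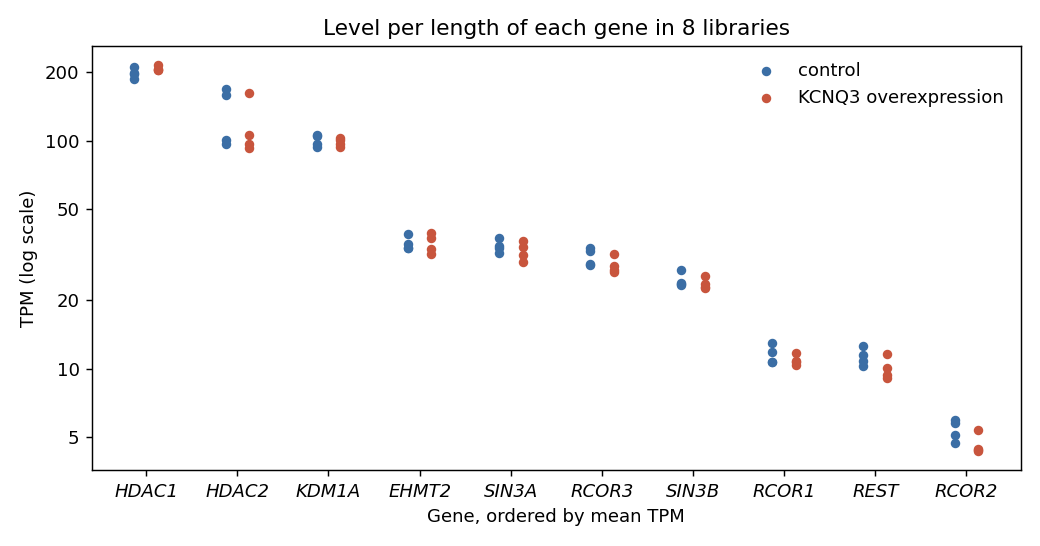
TPM of the 10 genes on a log axis, 1 point per library, with control libraries in blue and KCNQ3 overexpression libraries in red, ordered by mean TPM. HDAC1 leads at 202 TPM and RCOR2 is last at 5.02 TPM, while the HDAC2 points fall into an upper set of 3 libraries and a lower set of 5.

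Set against REST in the same library, the summed TPM of HDAC1 and HDAC2 was 23.9 to 40.0 times that of REST and the TPM of KDM1A was 8.35 to 10.3 times that of REST. The 2 SIN3 genes together had 4.88 to 6.32 times, and the 3 RCOR genes together 4.19 to 4.51 times, the TPM of REST. EHMT2 over REST was 3.16 ± 0.15 in controls and 3.54 ± 0.13 in overexpression libraries (SD, n = 4) with groups that did not overlap. This ratio of TPM values was singled out after its values were seen and is given without a test. How often ratios of other genes part by group was not counted. Within each family the shares of the paralogs overlapped between groups. RCOR3 held 64.6% ± 1.56 of the RCOR TPM in controls and 64.6% ± 0.48 in overexpression libraries, RCOR1 24.1% ± 1.87 and 24.9% ± 0.64, and RCOR2 11.3% ± 0.57 and 10.6% ± 0.32.

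SIN3A held 58.5% ± 1.01 of the TPM of the SIN3 pair in controls and 58.1% ± 2.76 in overexpression libraries. HDAC1 held 52.6% to 69.0% of the TPM of the deacetylase pair over the 8 libraries, a range set by HDAC2. HDAC2 varied 1.05 times from lowest to highest library in CPM but 1.80 times in TPM. Its long transcript HDAC2-205, of 9874 bases, held 75.9%, 77.5%, 41.5% and 37.6% of its counts in control libraries 1 to 4 and 70.3%, 35.5%, 75.6% and 71.7% in overexpression libraries 1 to 4. The 3 libraries where that share was lowest, control libraries 3 and 4 and overexpression library 2, were the 3 of highest HDAC2 TPM.

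The division of a gene between its transcripts is the authors' estimate from reads that transcripts largely share, and it moved widely between libraries of one group. The files held 107 transcripts of the 10 genes, of which 91 had a count and 42 were tested. By edgeR's quasi-likelihood test over 47129 transcripts, 0 of the 42 had an adjusted p below 0.05, against 0.0127% of all transcripts tested, and 5 of the 42 had an unadjusted p below 0.05, against 5.58%. On simulated counts this transcript test recovered 0% of 2-fold, 8% of 4-fold and 26% of 16-fold changes. A lack of calls thus does not show that no transcript changed. In a test of transcript usage (edgeR's diffSpliceDGE), 0 of the 8 genes with more than 1 tested transcript were called, against 0.383% of all genes in that test. KDM1A had the smallest unadjusted usage p of those genes, 0.0229, and EHMT2 the next, 0.165. On simulated counts 53 of 83 calls of this usage test were false. Neither the share over all genes nor these 2 p-values are therefore read as a result.

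Exons that neurons splice into REST, KDM1A and EHMT2 are shown because they bear on which form of the repressor these cells made. They are read from GENCODE 29 transcripts (GRCh38) 5′ to 3′ on the strand of the gene, with the coding bases of the alternative exon in capitals and up to 12 bases of the adjoining exons in lower case. The REST exon lies at chr4:56927615-56927664, the KDM1A exon of 12 bases at chr1:23066060-23066071, and the EHMT2 exon of 102 bases at chr6:31888969-31889070 on the minus strand.
REST neuronal exon: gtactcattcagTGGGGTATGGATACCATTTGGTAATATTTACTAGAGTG
KDM1A exon of 12 bases: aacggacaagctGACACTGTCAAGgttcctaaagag
EHMT2 exon 10: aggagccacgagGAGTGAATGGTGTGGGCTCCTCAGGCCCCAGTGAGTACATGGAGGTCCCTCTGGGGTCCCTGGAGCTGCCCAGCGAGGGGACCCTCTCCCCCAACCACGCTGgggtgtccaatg

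The REST exon yields the truncated REST4 form in neurons. The transcripts that hold it, REST-204, REST-205 and REST-207, had 3 counts in all 8 libraries together: REST-205 had 2 in control library 2 and REST-207 had 1 in control library 1. Nearly all REST counts went to REST-201 and REST-208, which share a coding sequence of 3291 bases and differ outside it. REST-201 held 41.4%, 77.4%, 41.9% and 99.7% of REST counts in control libraries 1 to 4 and 62.5%, 48.1%, 99.8% and 100% in overexpression libraries 1 to 4, so both groups ran from below 50% to nearly the whole gene. SRRM4, the splicing factor known for including such neuronal exons, had 1 count in all 8 libraries.

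The KDM1A exon adds 4 codons between exons 8 and 9 of the demethylase, in a form known from neurons. The exon is carried by KDM1A-202, which also holds a coding exon of 60 bases between exons 2 and 3 (chr1:23044427-23044486) that the other main transcripts lack, so the estimates do not tell inclusion of one exon from that of the other. Among the 3 main KDM1A transcripts, the share held by KDM1A-202 was 2.96%, 4.98%, 3.31% and 5.00% in control libraries 1 to 4. In overexpression libraries 1 to 4 it was 35.5%, 3.70%, 29.6% and 3.65%. Overexpression libraries 1 and 3 stood far above the rest, whereas overexpression libraries 2 and 4 lay within the control range. KDM1A-202 had control counts of 166, 252, 139 and 226 and overexpression counts of 1738, 162, 1507 and 162, with a log2 difference of 2.16, an unadjusted p of 0.0390 and an edgeR adjusted p of 0.894. In the same overexpression libraries 1 and 3 the main transcript KDM1A-201 held 34.7% and 16.5% of the gene, against 85.1% to 92.8% in the other 6, while KDM1A as a whole stayed within 180 to 194 CPM in all 8.

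EHMT2 exon 10 is an in-frame exon of 34 codons, included more often in neuronal tissue. Its share was 50.3%, 34.5%, 78.3% and 46.4% in control libraries 1 to 4 and 74.6%, 40.7%, 26.6% and 65.4% in overexpression libraries 1 to 4, with ranges that overlapped. Another division of EHMT2 fell apart by group. The transcripts with the longer first coding exon, EHMT2-201 and EHMT2-204, held 16.5%, 37.1%, 12.7% and 31.1% of the counts of the main coding forms in control libraries 1 to 4 and 100%, 100%, 64.2% and 100% in overexpression libraries 1 to 4. All 4 overexpression libraries lay above all 4 controls. This share was singled out after its values were seen and has no test of its own. How often divisions of other genes part by group was not counted. It rests on estimates that put EHMT2-202 and EHMT2-203 at 0 counts in overexpression libraries 1, 2 and 4. EHMT2-201 alone had a log2 difference of 1.79 with an unadjusted p of 0.00202 and an edgeR adjusted p of 0.664.

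**Figure D4:**
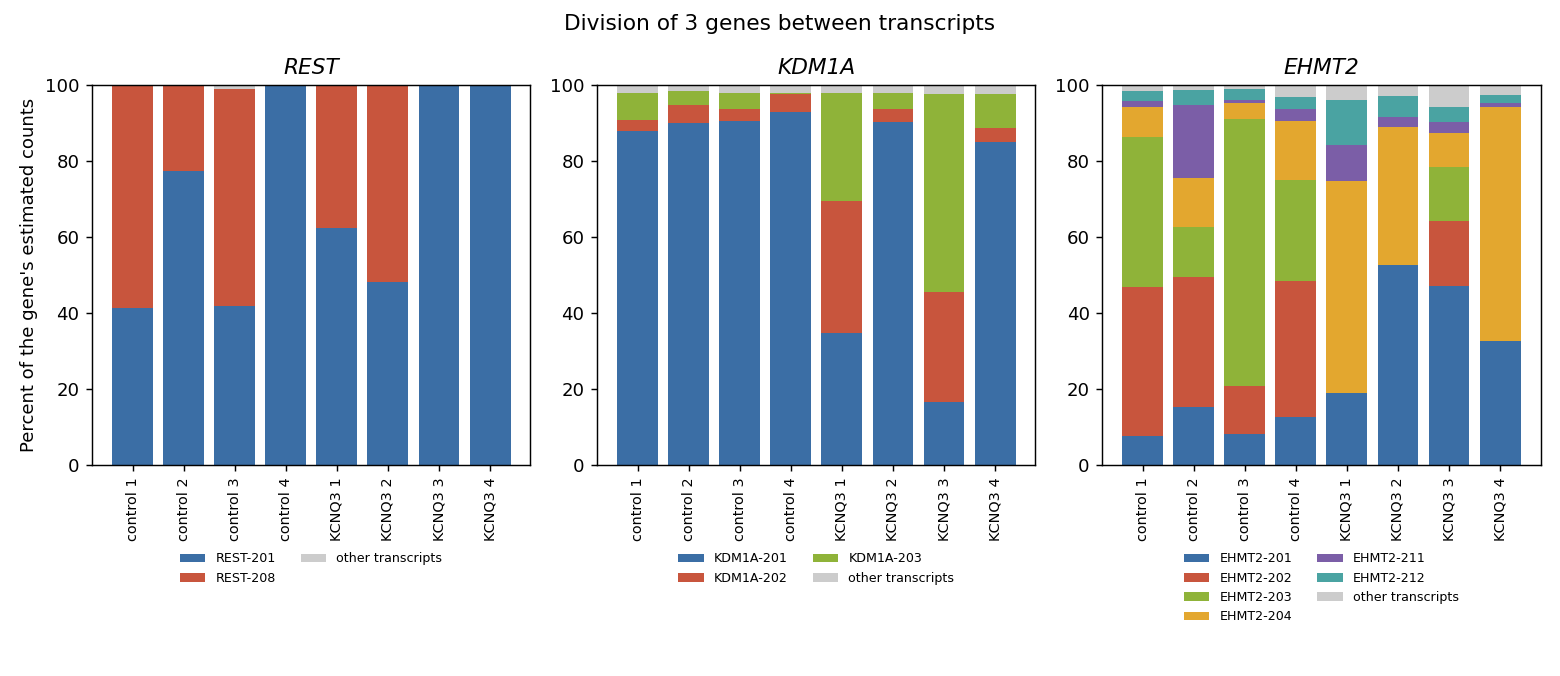
Percent of the estimated counts of REST, KDM1A and EHMT2 held by each transcript with at least 5% in a group mean, 1 stacked bar per library, with the remaining transcripts in grey. REST-201 reaches from 41.4% to 100%, KDM1A-201 drops to 34.7% and 16.5% in overexpression libraries 1 and 3, and EHMT2-202 and EHMT2-203 are at 0% in 3 of 4 overexpression libraries.

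Transcripts of SIN3A and HDAC2 also swung between libraries. SIN3A-201, of 5050 bases, had 0 to 4 counts in 5 libraries and 1140, 1755 and 1479 counts in control library 4 and overexpression libraries 2 and 3. HDAC2-206 had 2900 counts in control library 3 and 0 to 3 in the other 7. By contrast RCOR1-201 held 99.3% to 99.8% of RCOR1 and RCOR2-201 held 98.5% to 99.6% of RCOR2 in every library, and HDAC1-201 held 90.4% to 93.3% of HDAC1. RCOR3 was divided more evenly, with 58.1% ± 5.35 in RCOR3-201 in controls and 54.8% ± 0.54 in overexpression libraries. SIN3B-201 held 88.0% ± 6.27 of SIN3B in controls and 89.9% ± 1.00 in overexpression libraries. Antisense genes share exon bases with SIN3A, HDAC2 and EHMT2, but had at most 45, 18 and 17 counts in a library.

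Partners of the repressor (3 lists), paralogs that serve other corepressors and regulators of REST together made 5 lists of 48 genes, of which 47 were tested. By edgeR's quasi-likelihood test 0 of 47 had an adjusted p below 0.05, against 0.301% of all genes, and 11 of 47 had an unadjusted p below 0.05, against 19.4% of all genes. The 11 were all lower, where 9.46% of all genes were lower at that level. Of the 47, 37 had a log2 difference below 0, with a median of -0.06 beside 0.01 for all genes tested. Groups that did not overlap occurred in 5 of 47, all lower, where 5.77% of all genes were lower in that way. DESeq2 called 6 of the 47 lower and none higher. Of the 13655 genes it gave an adjusted p, it called 750 lower and 602 higher, or 9.9% in either direction.

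Of 8 CoREST partners, 6 lay below 0 and none was called by the edgeR test. HMG20B, a DNA-binding subunit, had a log2 difference of 0.11 (edgeR adjusted p = 0.344) and CTBP1, a corepressor bound through adaptors, one of 0.06 (edgeR adjusted p = 0.438). PHF21A, the subunit that reads unmethylated histone H3, was singled out after its values were seen. It was at 41.7, 38.3, 42.8 and 38.8 CPM in control libraries 1 to 4 and at 36.1, 34.3, 34.2 and 31.5 CPM in overexpression libraries 1 to 4, and every overexpression library was below every control. Its log2 difference was -0.25 (SE 0.055, edgeR adjusted p = 0.0677), DESeq2 gave an adjusted p of 0.00134, and it passed the edgeR threshold without overexpression library 1, at -0.28. That fit called 378 genes, against 58 in the main fit. PHF21A was not called in the other 14 of 16 alternatives. Leaving out any other library gave edgeR adjusted p-values of 0.0669 to 0.183. GSE1, likewise singled out after its values were seen, had -0.22 with adjusted p-values of 0.145 by the edgeR test and 0.0316 by DESeq2.

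Of 16 SIN3 partners, 11 lay below 0 and none was called by the edgeR test. RBBP7, a histone-binding subunit with 312 TPM, had a log2 difference of 0.08 (edgeR adjusted p = 0.314), and MORF4L1, a reader of methylated histones, had 0.04 (edgeR adjusted p = 0.609) but -0.14 on the TPM scale. SAP130 and ARID4A, singled out after their values were seen, had -0.17 and -0.20 with edgeR adjusted p-values of 0.138 and 0.144 and DESeq2 adjusted p-values of 0.0329 and 0.0446. All 8 other chromatin partners lay below 0, again with none called by the edgeR test. KDM5C, a histone demethylase, had -0.11 (edgeR adjusted p = 0.243) and SMARCA4, the ATPase of the BAF remodeller, -0.12 (edgeR adjusted p = 0.345). EHMT1, the partner enzyme of EHMT2, had -0.09 (edgeR adjusted p = 0.455).

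Of 5 paralogs that serve other corepressors, 3 lay below 0 and none was called by the edgeR test. HDAC3, the deacetylase of the NCOR complex, had a log2 difference of 0.05 (edgeR adjusted p = 0.516), or -0.05 on the TPM scale, and NCOR1 had -0.16 (edgeR adjusted p = 0.207). KDM1B had 477, 3, 495 and 405 counts in control libraries 1 to 4 and 446, 223, 509 and 4 in overexpression libraries 1 to 4, so that control library 2 and overexpression library 4 stood apart from the others.

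Proteins that set the amount or form of REST made a list of 11, of which 10 were tested and 9 lay below 0. None was called by the edgeR test. USP7, a deubiquitinase that protects REST, had a log2 difference of -0.04 (edgeR adjusted p = 0.638). USP15, another deubiquitinase of REST, was singled out after its values were seen. It was at 63.4, 66.8, 67.2 and 66.5 CPM in control libraries 1 to 4 and at 59.4, 59.0, 57.0 and 55.5 CPM in overexpression libraries 1 to 4, with no overlap, a log2 difference of -0.19 (SE 0.039) and adjusted p-values of 0.0628 by the edgeR test and 3.02e-04 by DESeq2. Without overexpression library 1, USP15 passed the edgeR threshold at -0.21. DESeq2 and that fit were the only 2 of 16 alternatives that called USP15. BTRC, the ubiquitin ligase subunit that marks REST for degradation, also had groups that did not overlap, with a log2 difference of -0.11 (edgeR adjusted p = 0.156), and was likewise chosen after the fact. PRICKLE1, chosen in the same way, had -0.26 (edgeR adjusted p = 0.123) and 0.0346 as its DESeq2 adjusted p.

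Neuronal genes known or widely reported as targets of REST made a list of 38. Of these, 16 were too low to be tested. Of the 22 tested, 14 lay below 0, 4 were lower with an edgeR adjusted p below 0.05 and 0 were higher, where 0.192% of all genes were called lower. The 4 were CELF3, SYN1, RUNDC3A and SNAP25. The list was written with these results known, so it is not independent evidence of a direction. SNAP25 passed the filter on low counts through the controls alone, so its inclusion in the count of 4 lends that count no support. KCNN4, outside the naming rule, also needed the controls to pass, with counts of 20, 12, 10 and 17 in control libraries 1 to 4. Its counts in overexpression libraries 1 to 4 were 5, 12, 6 and 7, for a log2 difference of -0.89 (edgeR adjusted p = 0.170). The places of SNAP25 and KCNN4 among the 14 below 0 thus lend that count no support either. Abundant targets did not pass the test. STMN3, a regulator of microtubules at 24.6 TPM, had a log2 difference of 0.02 (edgeR adjusted p = 0.882), INA, a neuronal intermediate filament at 13.4 TPM, had -0.11 (edgeR adjusted p = 0.398), and SYP, a synaptic vesicle protein at 10.9 TPM, had 0.10 (edgeR adjusted p = 0.515). These 3 were named, outside the rule, because they had the highest TPM of the tested targets.

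CELF3, a neuronal RNA-binding protein, had 72, 55, 55 and 54 counts in control libraries 1 to 4 and 20, 12, 14 and 16 in overexpression libraries 1 to 4. Every overexpression library was well below every control. The level went from 2.22 ± 0.12 to 0.608 ± 0.12 CPM (SD, n = 4), a log2 difference of -1.86 (SE 0.15, edgeR adjusted p = 6.21e-04). SYN1, which coats synaptic vesicles, had 62, 51, 46 and 41 counts in control libraries 1 to 4. Its overexpression libraries had 26, 23, 25 and 28, again with no overlap, for a log2 difference of -0.90 (SE 0.13, edgeR adjusted p = 0.0224). SYN1 shares 23 exon bases with ARAF, a gene on the opposite strand with 1492 to 1944 counts per library. It also shares 297 exon bases with AL009172.2, on its own strand, which had 0 to 11 counts per library. RUNDC3A, a neuronal protein with a RUN domain, fell from control counts of 89, 81, 57 and 63 to overexpression counts of 41, 31, 43 and 36, also without overlap. Its log2 difference was -0.87 (SE 0.12, edgeR adjusted p = 0.0224), and an antisense gene that shares 225 exon bases with it had 51 to 79 counts per library. SNAP25, a protein of vesicle fusion, had control counts of 19, 22, 14 and 12 and overexpression counts of 5, 6, 6 and 6, all of the latter below the minimum count of 10, and is given as a description, with a log2 difference of -1.46 (SE 0.25, edgeR adjusted p = 0.0442).

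These 4 genes were scarce in both groups, with means of 0.312 to 1.32 TPM, and their calls were not equally stable. DESeq2 left all 4 out of its adjustment because of their low counts. CELF3 stayed past the threshold in all 12 alternatives that tested it, with edgeR adjusted p-values of 4.48e-04 to 0.0186. SYN1 lost its call in 6 of 12, 5 of which left out control library 1, 2 or 3 or overexpression library 2 or 3, with edgeR adjusted p-values up to 0.103. SNAP25 lost it in 8 of 12, among them without any single library except control 4 or overexpression 1, with edgeR adjusted p-values up to 0.141. RUNDC3A lost it in 8 of 15, among them both TPM scales and the fits without control library 1 or 2 or overexpression library 2, 3 or 4, with adjusted p-values up to 0.239. The sizes moved little for CELF3 (-1.98 to -1.78), SYN1 (-0.98 to -0.86) and SNAP25 (-1.57 to -1.30). For RUNDC3A the log2 difference ran from -0.93 to -0.51, the latter on log2(TPM + 1). SCG3, a granin that lay outside the naming rule, had control counts of 30, 30, 21 and 19 and overexpression counts of 9, 14, 16 and 14, a log2 difference of -0.84 (edgeR adjusted p = 0.0922). The summed level of the 7 neuron markers, most of it SYT1, overlapped between groups, as given above, and its part in these results was not tested.

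**Figure D5:**
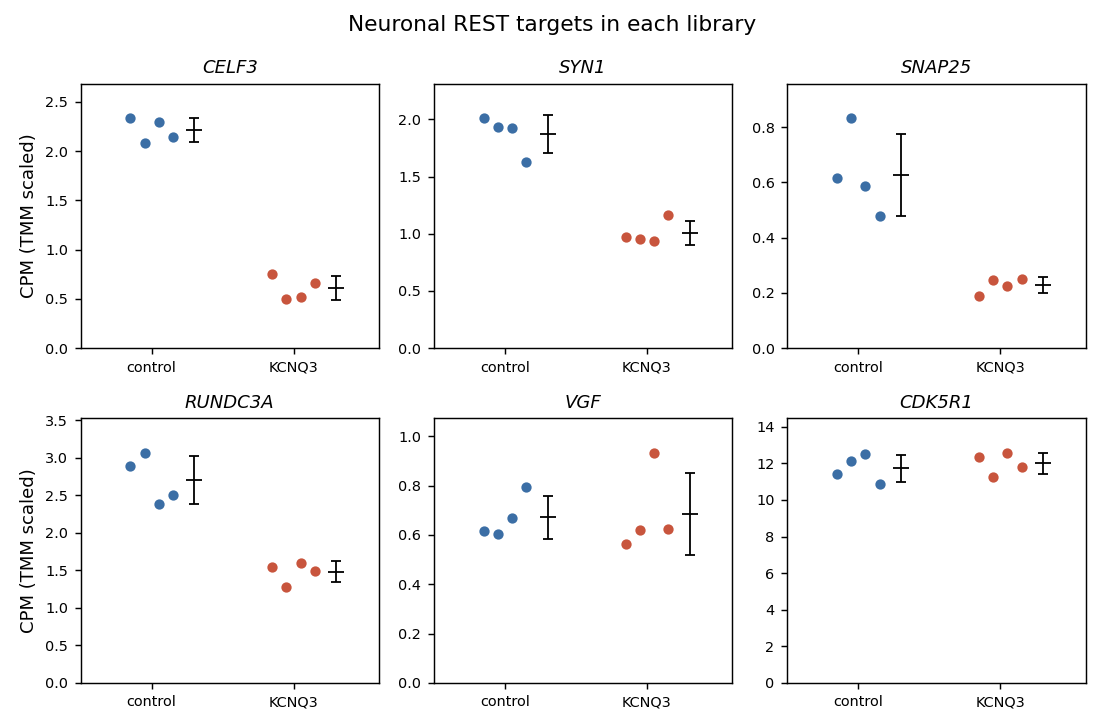
Level in CPM with TMM scaling of the 4 targets called lower (CELF3, SYN1, SNAP25, RUNDC3A) and of VGF and CDK5R1, whose promoter windows hold a site with 1 mismatch, 1 point per library with mean ± SD, control in blue and KCNQ3 overexpression in red. The groups are apart for the 4 called genes (2.22 against 0.608 CPM for CELF3) and overlap for VGF and CDK5R1.

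Promoter windows of 300 bases, 250 before to 50 after each RefSeq gene start (GRCh38.p14), were searched on both strands for the RE1 core, CAGCACC followed by 2 bases of any kind and GGACAG. The 13 fixed letters were compared, and overlap with other motifs was not considered. An exact match stood in 18 of 35116 windows, or 0.0513%, and at most 1 mismatch in 79, or 0.225%. Of the 38 targets 27 had a window, with 2 exact matches and 4 at no more than 1 mismatch. The 4 sites are shown 5′ to 3′ on the strand of the match, with the 13 compared letters in capitals, because they are where the listed targets carry the letters REST is known to bind.
SYN1: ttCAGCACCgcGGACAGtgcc
GRIA2: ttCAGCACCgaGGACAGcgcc
VGF: ttCAGCACGctGGACAGcgcc
CDK5R1: tgCAGAACCttGGACAGaagc

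In RefSeq coordinates, the SYN1 site, at chrX:47620070-47620090, ends 213 bases before the start of the gene and lies on its strand. The GRIA2 site, at chr4:157220388-157220408, ends 211 bases before the start on the opposite strand. The VGF site, at chr7:101165559-101165579 on the opposite strand, and the CDK5R1 site, at chr17:32486978-32486998, span the start. Counted from 1 at the first base of CAGCACC, the mismatches are C7G in VGF and C4A in CDK5R1.

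SYN1, as given above, was lower, while GRIA2, a glutamate receptor subunit, had 9 counts in all 8 libraries and was not tested. VGF, a secreted neuropeptide precursor, was at 0.616, 0.606, 0.669 and 0.795 CPM in control libraries 1 to 4 and at 0.563, 0.621, 0.933 and 0.622 CPM in overexpression libraries 1 to 4. Its groups overlapped, with a log2 difference of 0.04 (SE 0.20, edgeR adjusted p = 0.951). CDK5R1, the activator of a neuronal kinase, was at 10.9 to 12.5 CPM in controls and 11.3 to 12.6 CPM in overexpression libraries, a log2 difference of 0.03 (edgeR adjusted p = 0.839). The directions of VGF and CDK5R1 flipped under some alternatives. The sites therefore stood in promoters of genes that were lower, too low to test, or not changed by the test. None of the 9 members with a window held the core, exact or with 1 mismatch, and CELF3 was not among the 4 targets that did.

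The genes whose levels followed REST most closely over the 8 libraries were ELP3 (Pearson r = 0.995 of log2(CPM + 1)), TRIO (0.990), NORAD (0.976), KIAA1324L (0.974) and CAMSAP2 (0.973), among 11188 genes of at least 10 CPM. These are descriptions over 8 libraries that share the 2 groups. ELP3 had a log2 difference of -0.09 and TRIO of -0.11 between groups, beside -0.11 for REST, with edgeR adjusted p-values of 0.325 and 0.323. No other member of the 10 genes was among the 5.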

How the data were processed

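RNA was sequenced from 8 HEK293T libraries. For 227751 transcripts the authors deposited estimated counts in one table and TPM (shares of a library scaled by transcript length) in another. Per the submitters' processing notes, cutadapt 2.8, HISAT2 2.1.0, SAMtools 1.9 and StringTie 2.1.0 were among the tools and the build was GRCh38.p13. The sources used here give no annotation release, strand setting or role of a tool. The estimated counts were already whole, and they follow a model that divides shared reads between transcripts.

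GENCODE 29 gave the gene of each transcript by its identifier. Of them 205804 matched, holding 98.8% to 98.9% of counts, and 21947 did not. Counts and TPM were summed per gene. Totals were 24020097 to 30734915 per library. The 12 pairs within groups had chi-square values per degree of freedom of 9.72 to 18.6, so no library was a copy. The test was edgeR 4.0.16's quasi-likelihood test (R 4.3.3, TMM, robust, filterByExpr with minimum count 10 and total 15), Benjamini-Hochberg threshold 0.05, without covariates. Intervals are 95%. On simulated data the gene test recovered 20% of 1.25-fold and 60% of 1.5-fold changes, so small differences can go uncalled. Usage-test calls were mostly false there, so no count of usage calls over all genes is read as a result.

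Alternatives were DESeq2 1.42.0, other scaling and filters, limma 3.58.1 on log2(TPM + 1) and log2(TPM + 0.1) for genes of mean TPM at least 1, a replicate block and each library left out. Named were the 10 genes, KCNQ3, up to 4 called genes per list or else the 2 of highest TPM, member transcripts with at least 5%, and the 5 genes most like REST. Members and lists were chosen with earlier results of these data known. Not every gene that this rule takes is reported here. A promoter window was not used for RCOR2, SNAP25 and RUNDC3A.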

Additional observations from a re-analysis of the deposited data

Results flagged for a closer look

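A library far from the other 3 of its group (by the gap to its neighbour over the range of the group, above Dixon's 95% limit) was found in 8 of 72 groups of 4, where chance gives about 1 in 20. In the controls, library 1 was the high one for REST, at 51.5 CPM with the others at 47.3 to 48.0, and for EHMT2, at 86.9 CPM with the others at 79.7 to 80.8. It was the low one for MORF4L1, at 217 CPM with the others at 233 to 235. In the overexpression libraries, RCOR2 was high in library 1, at 9.27 CPM against 8.07 to 8.21, and SIN3A was high in library 3, at 135 CPM against 121 to 122. CTBP1 was low in library 4, at 115 CPM against 118 to 119. Among the neuronal targets, SCG3 was low in overexpression library 1, at 0.338 CPM against 0.579 to 0.597, and VGF was high in overexpression library 3, at 0.933 CPM against 0.563 to 0.622.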

How the results depend on the processing

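The 10 genes had 0 calls under all 16 alternatives, and 155 of 160 values kept their direction. The exceptions were SIN3B (0.0074 without control 1, -0.050 to 0.0074 over all libraries left out) and, on log2(TPM + 1) and log2(TPM + 0.1), KDM1A (-0.027 in both) and EHMT2 (-0.0026 and -0.0027). On both TPM scales 9 of 10 lay below 0, where the median over all genes was -0.03 and -0.04. The count of all genes called, 58, was 35 without scaling factors, 1352 by DESeq2, 5 on both TPM scales and 8 to 378 when a library was left out, with 378 without overexpression 1, 194 without control 4, 8 without overexpression 2 and 15 to 20 without any other. Neuronal targets called were 1 of 12 with a mean of at least 50 counts, 0 of 9 by DESeq2 and 0 of 10 on both TPM scales, against 4 of 22. These settings left CELF3, SYN1 and SNAP25 out, and DESeq2 also RUNDC3A, so only RUNDC3A lost a call, on the TPM scales. They numbered 1 to 4 when a library was left out: 1 without controls 1 or 2 or overexpression 2 or 3, and 2 without control 3 or overexpression 4. The same replicate numbers did not pair libraries (correlations -0.035 to 0.027). With that number as a replicate block, 86 genes, 1 target, 0 transcripts and 21 usage genes were called, against 58, 4, 6 and 36. Leaving out a library gave 0 to 9 transcripts and 122 to 164 usage genes. Reversed on TPM (+ 1, then + 0.1) were MORF4L1 (-0.14, -0.14), HDAC3 (-0.051, -0.051), STMN3 (-0.089, -0.092) and CDK5R1 (-0.0021, -0.0022), and on the latter PRICKLE1 (0.0016). Leaving out 1 library reversed STMN3 (-0.0068 without control 3, -0.029 without overexpression 4, at most 0.069), VGF (-0.010 and -0.013 without control 1 or 2, -0.16 without overexpression 3, at most 0.12) and CDK5R1 (-0.0058 without control 4, at most 0.061). The cause was not tested. Depth limited the neuronal targets, of which 16 of 38 were too low to test.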
